A study of Mus musculus with 13 samples.

Results

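The 10 genes described here are genes of lymphocytes. Cd3g, Cd3d and Cd8b1 are used by T cells, Gzma, Gzmb and Prf1 by cytotoxic T cells and natural killer cells, Cd79a, Cd79b and Igj by B cells and plasma cells, and Ltb by lymphocytes of both kinds. They were listed by gene name as markers of these cells, at a time when earlier results of these data were known, with 1 probe set a gene, and all 10 probe sets were among the 22690 deposited, of which 22626 were not array controls and were tested. The pairing of probe set and gene is that of the Affymetrix array design as given with the list, because the deposited values carry probe set identifiers alone. The probe sets were 1419178_at (Cd3g), 1422828_at (Cd3d), 1448569_at (Cd8b1), 1417898_a_at (Gzma), 1419060_at (Gzmb), 1451862_a_at (Prf1), 1418830_at (Cd79a), 1417640_at (Cd79b), 1424305_at (Igj, now named Jchain) and 1419135_at (Ltb).

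RNA was measured in 13 cutaneous melanomas, each on 1 array. There were 6 ARF-deficient tumors, 5 labelled ARF heterozygous (numbers 8, 9, 12, 13 and 14) and 1 labelled ARF null (number 10), and 7 INK4a-deficient tumors, 4 labelled INK4a null (numbers 1.2, 2.2, 3 and 7.2) and 3 labelled INK4a heterozygous (numbers 5.2, 6.2 and 15). INK4a and ARF are separate tumor suppressor proteins made from overlapping reading frames of the Cdkn2a locus, and each strain carried a mutation that inactivates just one of them. All mice, whichever genotype, carried an HGF/SF (hepatocyte growth factor/scatter factor) transgene driven by a metallothionein promoter, which is not specific to melanocytes. Every tumor was started by a single UV dose to newborn pups aged 3.5 days, on a background of about 90% FVB/N and 10% C57BL/6. The age of the mice at collection, and which tumors shared a mouse, were not given in the sources used here. Each p-value therefore rests on the spread between these tumors alone and treats them as independent. If some tumors shared a mouse, the p-values could be too small. The titles of the 6 ARF-deficient tumors say Ink4a where their genotype labels say ARF, and the genotype labels were followed.

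The values were logs, read here as base 2, and each probe set had been centred on its median over the 13 tumors. A value of 1 is thus a doubling over the middle tumor, exactly 6 tumors lie above 0 for each of the 10 genes, and the values say nothing of how abundant a transcript is or whether it was detected at all. A gene that hardly varied may have been absent from every tumor or present evenly. In bulk tumor RNA, fewer lymphocytes and less RNA in each lymphocyte cannot be told apart.

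T cells recognise antigen through the T cell receptor, whose signal is carried into the cell by the CD3 chains, among them those encoded by Cd3g and Cd3d. The CD8 co-receptor, of which Cd8b1 encodes the beta chain, marks most T cells that kill. Killing is done with granules that hold perforin, the pore-forming product of Prf1, and granzymes, the serine proteases encoded by Gzma and Gzmb. B cells signal through CD79A and CD79B, the partners of surface immunoglobulin. The J chain, product of Igj, joins the antibodies that plasma cells secrete as multimers. Lymphotoxin beta, product of Ltb, holds lymphotoxin on the cell surface and is needed to build and keep lymphoid tissue.

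The promoters of Cd3g, Cd3d and Igj are printed because their pairs had an adjusted permutation p under 0.05 by Pearson's r across the tumors. By Spearman's rho, and after quantile normalization, only the pair of Cd3g and Cd3d did. Each promoter runs 5′ to 3′ on the gene's own strand, from 250 bases before to 50 bases after the gene's start. Coordinates are as given by RefSeq for GRCm38.p6. Cd3g lies on the minus strand (chr9:44980382-44980681), Cd3d on the plus strand (chr9:44981536-44981835) and Igj on the minus strand (chr5:88527848-88528147). Cd3g and Cd3d are neighbours read in opposite directions, with starts 1355 bases apart. Capitals mark matches, on either strand, to any of 5 short motifs: TGTGGT (the core bound by RUNX factors), CAGCTG (an E-box), CACCTG (the E-box form bound by E2A), AGGAAGT (an ETS site) and AGATAA (bound by GATA factors).
Cd3g: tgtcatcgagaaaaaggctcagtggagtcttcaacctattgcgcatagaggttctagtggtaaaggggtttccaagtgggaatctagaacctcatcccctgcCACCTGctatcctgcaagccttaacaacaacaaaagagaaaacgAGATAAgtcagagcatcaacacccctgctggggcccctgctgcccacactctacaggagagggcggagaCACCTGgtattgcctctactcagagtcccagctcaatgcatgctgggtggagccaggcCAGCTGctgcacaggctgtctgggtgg
Cd3d: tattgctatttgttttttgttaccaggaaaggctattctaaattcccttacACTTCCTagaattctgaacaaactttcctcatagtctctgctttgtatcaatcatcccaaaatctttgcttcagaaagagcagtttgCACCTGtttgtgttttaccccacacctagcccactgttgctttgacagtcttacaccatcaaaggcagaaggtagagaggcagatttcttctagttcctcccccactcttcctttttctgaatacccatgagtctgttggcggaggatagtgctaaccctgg
Igj: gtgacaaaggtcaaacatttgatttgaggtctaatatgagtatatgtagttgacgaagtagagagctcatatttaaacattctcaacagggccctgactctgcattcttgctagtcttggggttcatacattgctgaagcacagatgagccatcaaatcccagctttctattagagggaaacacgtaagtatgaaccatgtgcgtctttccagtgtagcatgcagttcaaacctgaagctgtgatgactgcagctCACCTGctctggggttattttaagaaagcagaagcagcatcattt
All of these held CACCTG, Cd3g at 2 places, 1 of them 35 bases before the start, and Igj just after its start. Of the 10 genes, 8 had a promoter in the RefSeq table, and CACCTG was found in 7 of those 8 (the exception was Gzmb), against 20.2% of all 32851 promoters of the same length. TGTGGT was found in 3 of the 8 (Gzma, Gzmb and Prf1, the granule genes), against 16.8% of all promoters, and AGGAAGT in 3 of the 8, against 9.35%. CAGCTG was found in 2 of the 8, against 16.3%, and AGATAA in Cd3g alone, against 11.2%. A match is a run of letters and not a measured site, and no binding was measured here.

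The 10 genes differed widely in how much they varied. Igj spanned 5.98 over the 13 tumors, with an SD of 2.05, and only 0.645% of all probe sets had a larger SD. Cd3g spanned 3.62 with an SD of 1.17, exceeded by 3.19% of probe sets. Cd3d came next with an SD of 0.45, and Cd8b1 and Ltb followed with 0.32 and 0.30, each near the median SD of 0.27 over all probe sets. The remaining genes lay below that median, at 0.25 for Cd79a, 0.24 for Cd79b, 0.20 for Gzmb, 0.18 for Gzma and 0.16 for Prf1. Thus 5 of the 10 genes varied more than the middle probe set, and the cytotoxic granule genes varied the least.

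**Figure D1:**
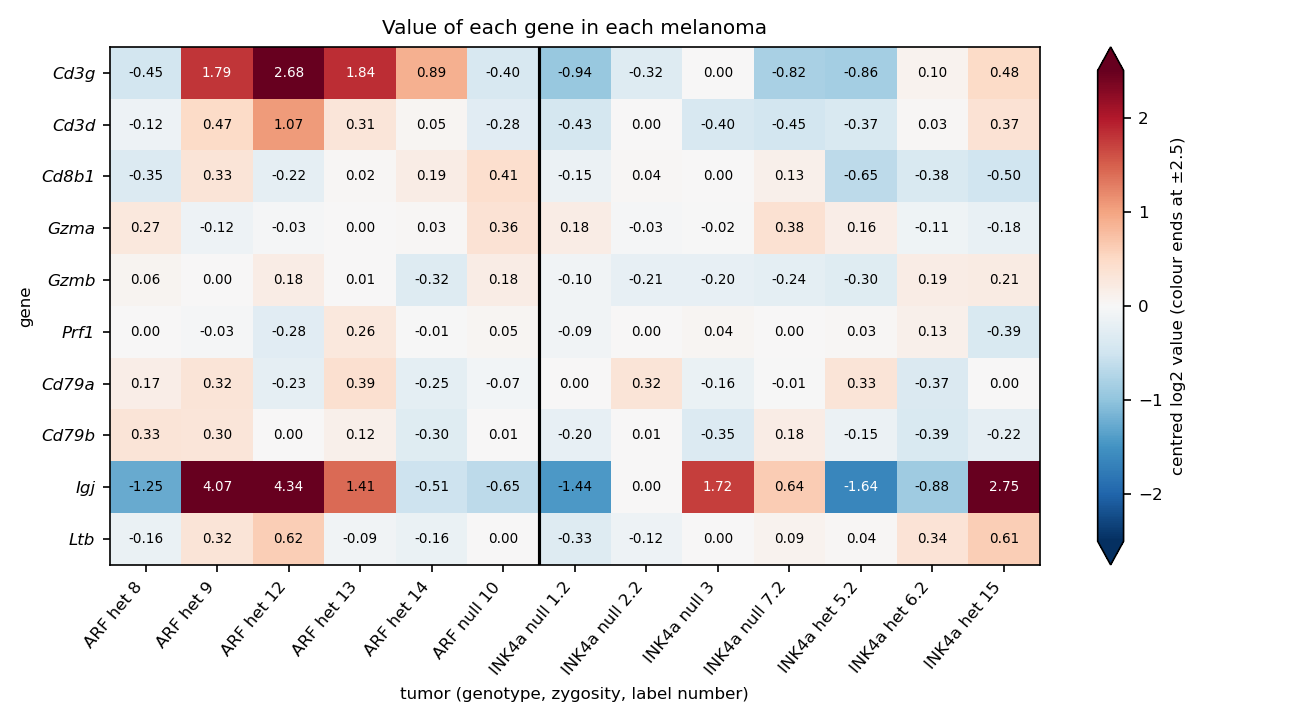
Centred log2 value of each of the 10 genes (rows) in each of the 13 tumors (columns), with ARF-deficient tumors left of the line and INK4a-deficient tumors right of it; colour ends at ±2.5 and the printed number is the value. The strongest colour lies in the Cd3g and Igj rows, both high in ARF heterozygous tumors 9, 12 and 13. Igj is also high in INK4a heterozygous tumor 15 (2.75) and INK4a null tumor 3 (1.72). It is low in INK4a heterozygous tumor 5.2 (-1.64), INK4a null tumor 1.2 (-1.44) and ARF heterozygous tumor 8 (-1.25). Cd3d reaches 1.07 in ARF heterozygous tumor 12.

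Cd3g stood high in most of the ARF-deficient tumors. The ARF heterozygous tumors 12, 13, 9, 14 and 8 measured 2.68, 1.84, 1.79, 0.89 and -0.45, and ARF null tumor 10 measured -0.40. The INK4a null tumors 1.2, 2.2, 3 and 7.2 measured -0.94, -0.32, 0 and -0.82, and the INK4a heterozygous tumors 15, 6.2 and 5.2 measured 0.48, 0.10 and -0.86. Hence 4 of the 6 ARF-deficient tumors exceeded every INK4a-deficient tumor, while the other two lay within the INK4a-deficient range. On its own array Cd3g ranked as the 51st highest of 22626 centred values in ARF heterozygous tumor 13, the 152nd in tumor 9, the 180th in tumor 12 and the 254th in tumor 14.

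Cd3d followed a similar order of tumors with a smaller span. The ARF heterozygous tumors 12, 9, 13, 14 and 8 measured 1.07, 0.47, 0.31, 0.050 and -0.12, and ARF null tumor 10 measured -0.28. The INK4a null tumors 1.2, 2.2, 3 and 7.2 measured -0.43, 0, -0.40 and -0.45, and the INK4a heterozygous tumors 15, 6.2 and 5.2 measured 0.37, 0.031 and -0.37. The groups overlapped, with 2 ARF-deficient tumors above all INK4a-deficient ones.

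Cd8b1 did not follow the CD3 genes. Its highest value, 0.41, was in ARF null tumor 10, where Cd3g was below the median, and the ARF heterozygous tumors 9, 14, 13, 12 and 8 measured 0.33, 0.19, 0.022, -0.22 and -0.35. The INK4a null tumors 7.2, 2.2, 3 and 1.2 measured 0.13, 0.037, 0 and -0.15. All the INK4a heterozygous tumors were lower, with -0.38 in tumor 6.2, -0.50 in tumor 15 and -0.65 in tumor 5.2, and held the 3 lowest values of the 13.

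The granule genes stayed close to their medians everywhere. Gzma, granzyme A, lay between -0.12 (tumor 9) and 0.36 (tumor 10) in the ARF-deficient tumors, with a median of 0.014, and between -0.18 (tumor 15) and 0.38 (tumor 7.2) in the INK4a-deficient tumors, with a median of -0.017. Gzmb, granzyme B, lay between -0.32 and 0.18 in the ARF-deficient tumors (median 0.039) and between -0.30 and 0.21 in the INK4a-deficient tumors (median -0.20). Prf1, perforin, lay between -0.28 (tumor 12) and 0.26 (tumor 13) in the ARF-deficient tumors, and between -0.39 (tumor 15) and 0.13 (tumor 6.2) in the INK4a-deficient tumors. For each of these the groups overlapped. In ARF heterozygous tumor 12, which had the highest Cd3g and Igj of all, Gzma measured -0.035, Gzmb 0.18 and Prf1 -0.28.

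The B cell receptor genes varied little and in a different order from the CD3 genes. Cd79a lay between -0.25 (tumor 14) and 0.39 (tumor 13) in the ARF-deficient tumors, with a median of 0.051, and between -0.37 (tumor 6.2) and 0.33 (tumor 5.2) in the INK4a-deficient tumors, with a median of 0. Cd79b lay between -0.30 (tumor 14) and 0.33 (tumor 8) in the ARF-deficient tumors (median 0.064) and between -0.39 (tumor 6.2) and 0.18 (tumor 7.2) in the INK4a-deficient tumors (median -0.20). Both genes had their lowest value in INK4a heterozygous tumor 6.2 and, among the ARF-deficient tumors, in tumor 14.

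Igj, the plasma cell gene, set single tumors apart in both genotypes. The ARF heterozygous tumors 12, 9, 13, 14 and 8 measured 4.34, 4.07, 1.41, -0.51 and -1.25, and ARF null tumor 10 measured -0.65. The INK4a null tumors 3, 7.2, 2.2 and 1.2 measured 1.72, 0.64, 0 and -1.44, and the INK4a heterozygous tumors 15, 6.2 and 5.2 measured 2.75, -0.88 and -1.64. High and low tumors thus occurred in both genotypes, and the groups overlapped over most of their range. If the base of the log is 2, the span between the highest and lowest tumor was 63.1-fold. Igj had the 25th highest centred value on the array in tumor 9, the 29th in tumor 12 and the 83rd in INK4a heterozygous tumor 15.

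Ltb was highest in tumors 12 and 15, which were also high for Igj, but was high in tumor 6.2 too, where Igj was low. It measured 0.62 in ARF heterozygous tumor 12 and 0.32 in tumor 9, with the other ARF-deficient tumors between -0.16 and 0. In the INK4a heterozygous tumors 15, 6.2 and 5.2 it measured 0.61, 0.34 and 0.039, and in the INK4a null tumors it lay between -0.33 and 0.090. The ARF-deficient and INK4a-deficient ranges overlapped almost completely.

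**Figure D2:**
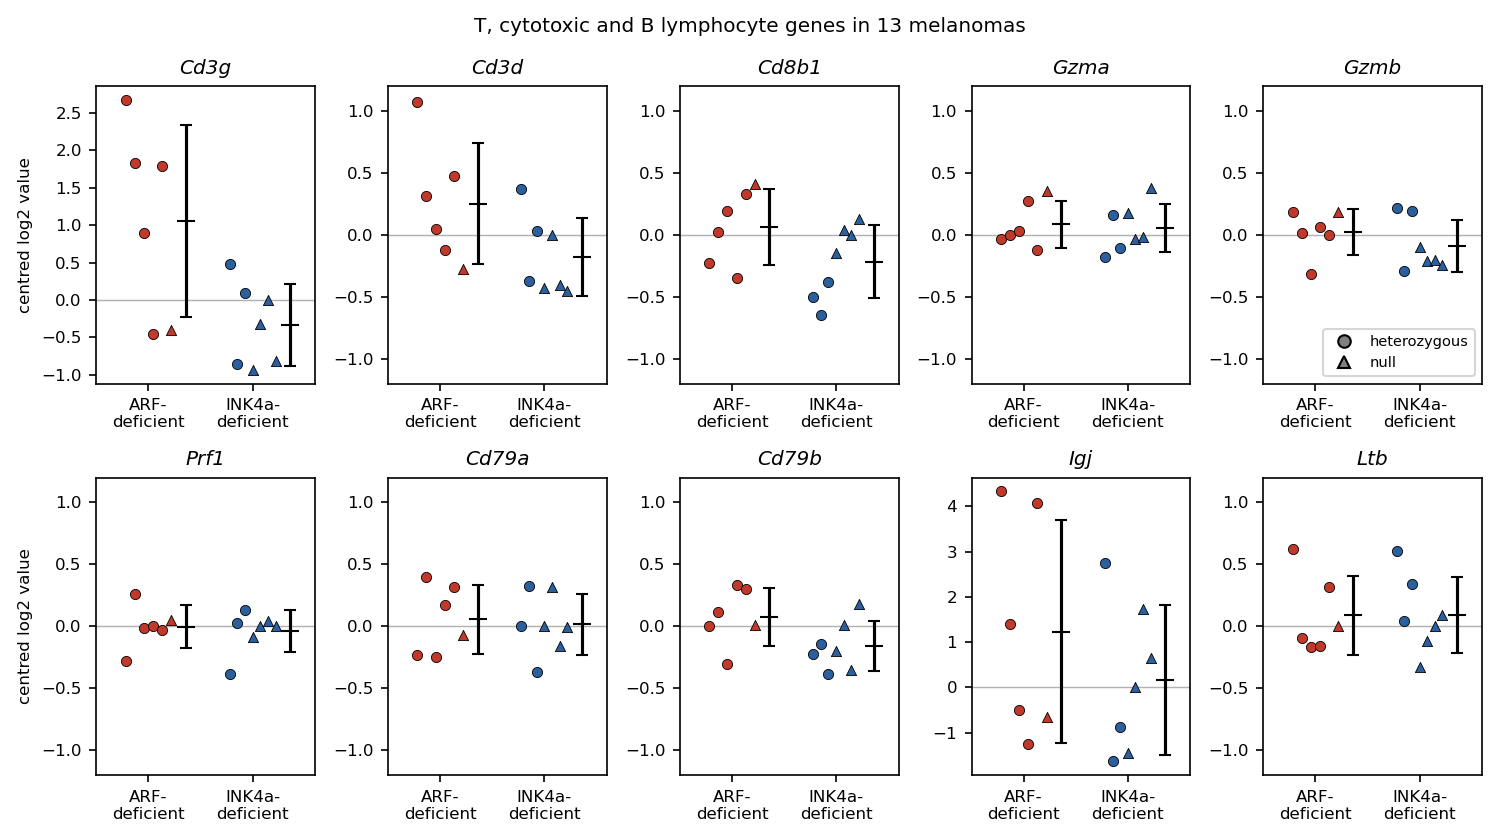
Centred log2 value of each gene in the ARF-deficient (red, n = 6) and INK4a-deficient (blue, n = 7) tumors, with circles for heterozygous and triangles for null tumors; bars are the mean ± SD, and the panels of Cd3g and Igj have wider vertical axes than the others. For Cd3g 4 of 6 ARF-deficient tumors lie above all INK4a-deficient tumors, whereas for Igj both groups reach from below -1 to above 2.5.

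The main comparison of the study set ARF-deficient against INK4a-deficient melanomas with zygosities pooled. Cd3g averaged 1.06 ± 1.28 in the ARF-deficient tumors and -0.34 ± 0.55 in the INK4a-deficient tumors (SD, n = 6 and 7), a difference of 1.39 with an SE of 0.49 and a 95% interval of 0.33 to 2.46. Only 0.486% of probe sets differed by more. The difference had an unadjusted p of 0.0145 in limma, 0.0274 in an exact permutation test and 0.0734 in an exact Mann-Whitney test, all two-sided, and after Benjamini-Hochberg adjustment over the 22626 probe sets the limma p was 0.891, which did not pass the threshold of 0.05.

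None of the 10 genes passed that adjusted test, and neither did any other probe set (0% of 22626). The smallest adjusted limma p over all probe sets was 0.708. At an unadjusted limma p under 0.05, Cd3g alone of the 10 genes was called, against 4.93% of all probe sets (506 higher and 609 lower in the ARF-deficient tumors, 1115 in all), and the exact Mann-Whitney test called 782 probe sets and none of the 10 genes. Beside that background, 1 gene among the 10 is no result about the set.

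Cd3d averaged 0.25 ± 0.49 in the ARF-deficient tumors and -0.18 ± 0.32 in the INK4a-deficient tumors (SD, n = 6 and 7). Its difference of 0.43 had a 95% interval of -0.028 to 0.89 and an exact permutation p of 0.0752, and without ARF heterozygous tumor 12 it was 0.27 (-0.12 to 0.65). Without ARF heterozygous tumor 8, ARF null tumor 10 or INK4a heterozygous tumor 15 the Cd3d interval lay above 0, with differences of 0.51, 0.54 and 0.52. Cd79b differed by 0.24 (-0.023 to 0.49, exact permutation p = 0.0763) and Cd8b1 by 0.28 (-0.069 to 0.63, exact permutation p = 0.124). Each of these intervals included 0, so neither a rise in the ARF-deficient tumors nor an equal level was shown. For Cd8b1 the interval lay above 0 with zygosity as a covariate, where the difference was 0.47 (0.20 to 0.74, limma adjusted p = 0.648). It also did in heterozygous tumors only (0.50, 0.10 to 0.90, limma adjusted p = 0.322). The same held with array weights (0.34, 0.016 to 0.67) and without ARF heterozygous tumor 8 (0.36, 0.017 to 0.71). The interval of Cd79b lay above 0 without ARF heterozygous tumor 14 (0.31, 0.070 to 0.55) or INK4a null tumor 7.2 (0.29, 0.044 to 0.54).

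Igj averaged 1.23 ± 2.47 in the ARF-deficient tumors and 0.16 ± 1.65 in the INK4a-deficient tumors (SD, n = 6 and 7). Its difference of 1.07 was among the largest of the table, with only 0.999% of probe sets above it in size, but it was smaller than the SD within either group. The 95% interval ran from -1.23 to 3.37 and the exact permutation p was 0.364. With the beta-actin 3′/5′ ratio, a measure of RNA quality, as a covariate the difference was 0.053 (-1.997 to 2.10), and 67.1% of probe sets were larger in size.

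The other five differences were small, with intervals on both sides of 0. Gzma differed by 0.029 (-0.21 to 0.26), Gzmb by 0.11 (-0.13 to 0.35), Prf1 by 0.036 (-0.18 to 0.25), Cd79a by 0.039 (-0.27 to 0.35) and Ltb by -0.0033 (-0.36 to 0.36). Over the 10 genes the median difference was 0.17 and 9 were positive, and over all probe sets the median was 0.0082 and 52.4% were positive. In the alternatives that tested all 10 genes the count ran from 8 to 10. Some of these genes varied together, so the count is a description and was not tested.

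**Figure D3:**
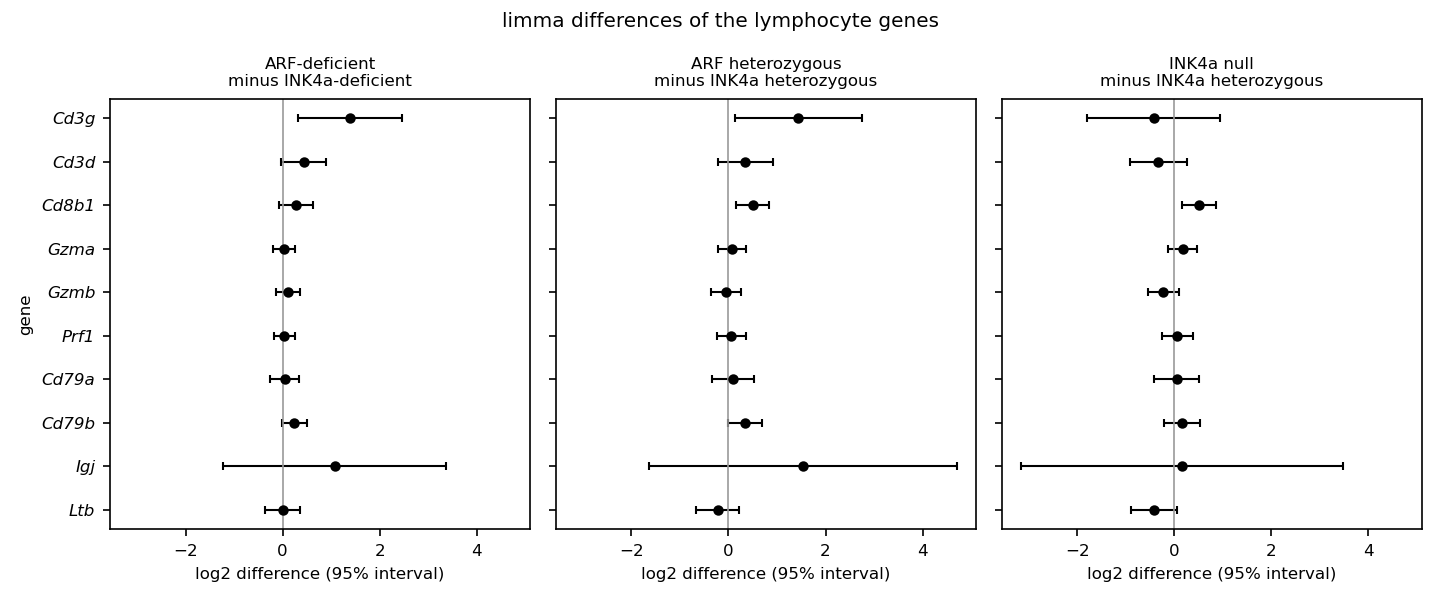
Difference of each gene (points) with its 95% interval from limma (lines) on the log2 scale, for ARF-deficient minus INK4a-deficient, ARF heterozygous minus INK4a heterozygous and INK4a null minus INK4a heterozygous tumors. The interval of Cd3g lies above 0 in the left and middle panels and that of Cd8b1 in the middle and right panels, before adjustment over all probe sets, and the Igj intervals are the widest.

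Zygosity was unevenly spread, with 1 null tumor of 6 among the ARF-deficient and 4 of 7 among the INK4a-deficient, so the heterozygous tumors were also compared with each other. Cd3g averaged 1.35 ± 1.19 in the ARF heterozygous tumors and -0.092 ± 0.69 in the INK4a heterozygous tumors (SD, n = 5 and 3), a difference of 1.44 with a 95% interval of 0.13 to 2.75, an exact permutation p of 0.125 and a limma adjusted p of 0.340. Cd8b1 averaged -0.0069 ± 0.28 in the ARF heterozygous tumors and -0.51 ± 0.14 in the INK4a heterozygous tumors, a difference of 0.50 with a 95% interval of 0.16 to 0.84, an exact permutation p of 0.0357 and a limma adjusted p of 0.226. All the ARF heterozygous tumors exceeded all the INK4a heterozygous ones for Cd8b1, as was so in one direction or the other for 7.85% of all probe sets.

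Neither gene passed the adjusted threshold, nor did any of the other eight, where 0.00442% of probe sets (1 of 22626) did. At an unadjusted limma p under 0.05, 2 of the 10 genes were called (Cd3g and Cd8b1), against 13.1% of all probe sets. Once the beta-actin ratio entered as a covariate neither interval excluded 0, at 0.54 (-0.80 to 1.87) for Cd3g and 0.34 (-0.055 to 0.74) for Cd8b1, and none of the 10 genes was called. That ratio was 0.81 to 1.49 in ARF heterozygous tumors 9, 12 and 13 and -0.36 and -0.035 in ARF heterozygous tumors 8 and 14, against -0.46 to -0.37 in the INK4a heterozygous tumors. The Cd3g interval also included 0 without any 1 of ARF heterozygous tumors 9, 12 and 13 or INK4a heterozygous tumors 5.2 and 6.2, with differences between 1.06 (without 5.2) and 1.54 (without 6.2). Of the rest, Igj had the largest difference, 1.54, with a 95% interval of -1.64 to 4.71. Leaving out 1 tumor moved the Igj difference between 0.68, without INK4a heterozygous tumor 5.2, and 2.87, without INK4a heterozygous tumor 15, and adding the beta-actin ratio to the fit turned it to -0.63 (-3.88 to 2.62). Cd79b differed by 0.34 (-0.019 to 0.70, and 0.44, 0.12 to 0.76, without ARF heterozygous tumor 14) and Ltb by -0.23 (-0.67 to 0.22), with a range for Ltb from -0.37 without INK4a heterozygous tumor 5.2 to -0.087 without INK4a heterozygous tumor 15. Over the 10 genes the median difference was 0.22 and 8 were positive, over all probe sets 0.037 and 57.3%. With the beta-actin ratio in the fit 5 of the 10 genes were positive, and 59.3% of all probe sets.

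Among INK4a-deficient tumors, null tumors were set against heterozygous ones. Cd8b1 averaged 0.0038 ± 0.12 in the INK4a null tumors and -0.51 ± 0.14 in the INK4a heterozygous tumors (SD, n = 4 and 3), a difference of 0.51 with a 95% interval of 0.16 to 0.87. The groups did not overlap, as held for 11.2% of all probe sets, so that the exact permutation p of 0.0286 was the smallest that 35 arrangements of these tumors allow, and the limma adjusted p was 0.220. This comparison shares its INK4a heterozygous tumors with the one above, so the pair of Cd8b1 differences are not separate observations. The beta-actin ratio was 0.14, 0.38 and 0.94 in INK4a null tumors 2.2, 3 and 7.2 and -0.54 in INK4a null tumor 1.2, against -0.46 to -0.37 in the INK4a heterozygous tumors, and with it as a covariate the Cd8b1 difference was 0.41 (0.045 to 0.78).

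Again none of the 10 genes passed the adjusted threshold, which 0.0398% of probe sets (9) did, and at an unadjusted limma p under 0.05 Cd8b1 alone was called, against 13.1% of probe sets. Cd3g and Cd3d pointed the other way from Cd8b1, lower in the null tumors by differences of -0.43 (-1.80 to 0.95) and -0.33 (-0.92 to 0.26). Their size depended on single heterozygous tumors, at -0.14 for Cd3g and -0.15 for Cd3d without INK4a heterozygous tumor 15, and -0.81 for Cd3g and -0.52 for Cd3d without INK4a heterozygous tumor 5.2. Ltb differed by -0.42 (-0.88 to 0.047) and Igj by 0.15 (-3.17 to 3.47), or by -0.70 without INK4a heterozygous tumor 5.2, 1.49 without INK4a heterozygous tumor 15 and -1.22 with the beta-actin ratio in the fit. The intervals of these genes included 0, but that of Ltb lay below 0 with the ratio as a covariate (-0.56, -1.04 to -0.090), without INK4a heterozygous tumor 5.2 (-0.56, -1.08 to -0.050) and with the 2 groups fitted alone (-0.42, -0.82 to -0.019). Gzmb differed by -0.22 (-0.55 to 0.099), by -0.39 (-0.69 to -0.092) without INK4a heterozygous tumor 5.2 and by -0.14 without INK4a heterozygous tumor 15. Over the 10 genes the median difference was 0.058 with 6 positive, over all probe sets 0.041 with 58.1% positive.

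Across the 13 tumors Cd3g and Cd3d varied together most closely of the 45 pairs of these genes. Their Pearson r was 0.913 (permutation p = 2e-05, adjusted over the 45 pairs 0.0009) and their Spearman rho 0.890 (permutation p = 0.00013, adjusted 0.00585). Dropping tumors 12 and 13, the 2 farthest from the Cd3g median, left r at 0.852, and within single genotypes r reached 0.932 (ARF-deficient) and 0.809 (INK4a-deficient). Among all other probe sets Cd3g ranked 4th by correlation with Cd3d, and Cd3d ranked 13th by correlation with Cd3g. Both probe sets therefore varied together within each genotype as well as across them. The order of single tumors still differed in places: among the INK4a null tumors Cd3g was highest in tumor 3 and Cd3d in tumor 2.2.

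Igj varied with the CD3 genes, less closely. With Cd3g its Pearson r was 0.791 (permutation p = 0.00214, adjusted 0.0345) and its rho 0.769 (adjusted p = 0.0695). The r was 0.726 without tumors 12 and 13, the 2 farthest from the Cd3g median. It was 0.888 within the ARF-deficient tumors and 0.705 within the INK4a-deficient tumors. With Cd3d its r was 0.764 (permutation p = 0.0023, adjusted 0.0345), but rho was 0.610 (permutation p = 0.0306, adjusted 0.259). That r was 0.470 without tumors 12 and 9, the 2 farthest from the Cd3d median, so the relation rested largely on those tumors. They also held the highest Igj values, 4.34 and 4.07. The r of 0.726 for Cd3g kept tumor 9, so it cannot be set against 0.470. Igj with Cd3g was not computed without tumors 12 and 9. These were the pairs past the adjusted threshold by Pearson's r, and Cd3g with Cd3d was the only one past it by rho. After quantile normalization neither Igj relation passed, with r of 0.633 for Cd3g and 0.623 for Cd3d (adjusted p = 0.195 for each). Leaving out 1 tumor, Igj with Cd3g passed in 6 of 13 runs and not without ARF heterozygous tumor 9 or 12, ARF null tumor 10, INK4a null tumor 1.2 or 2.2, or INK4a heterozygous tumor 5.2 or 15 (adjusted p up to 0.201). Igj with Cd3d passed in 5 of 13, failing without the same tumors and without ARF heterozygous tumor 13 (adjusted p up to 0.215). Cd3g with Cd3d passed in all 13 (adjusted p up to 0.0184) and after quantile normalization (adjusted p = 0.0468).

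Ltb ran in the same direction as Igj (r = 0.712, adjusted p = 0.0793, rho = 0.558, adjusted p = 0.268) and Cd3d (r = 0.688, adjusted p = 0.0837, rho = 0.446, adjusted p = 0.462) without passing. Taken as deviations from the genotype means both relations passed, with r of 0.741 (adjusted p = 0.0452) for Igj and 0.798 (adjusted p = 0.0308) for Cd3d, and Igj with Ltb also passed without INK4a heterozygous tumor 6.2 (adjusted p = 0.0287). Cd79a and Cd79b, whose proteins pair on the B cell surface, had an r of 0.619 (permutation p = 0.027, adjusted 0.157) and a rho of 0.593 (adjusted p = 0.259), with r of 0.765 within the ARF-deficient tumors and 0.574 within the INK4a-deficient tumors. Neither was closely related to Igj, with r of 0.00465 for Cd79a and 0.227 for Cd79b. The B cell receptor genes and the plasma cell gene thus ordered these tumors differently. The whole spans of Cd79a and Cd79b were 0.76 and 0.72, so their order rests on small differences.

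Gzma ran against the CD3 genes. Its r with Cd3g was -0.593 (permutation p = 0.0326, adjusted 0.157) and its rho -0.676 (adjusted p = 0.156), and within the genotypes r was -0.899 in the ARF-deficient tumors and -0.889 in the INK4a-deficient tumors. With Cd3d r was -0.624 (adjusted p = 0.157) and rho -0.747 (adjusted p = 0.0783). Taken as deviations from the genotype means, the same relations had r of -0.823 (adjusted p = 0.00675) and -0.770 (adjusted p = 0.0308). After quantile normalization neither passed, with r of -0.556 for Cd3g (adjusted p = 0.229) and -0.683 for Cd3d (adjusted p = 0.195). The whole span of Gzma was 0.56, so this order rests on small differences. Cd8b1, the T cell gene of the set that did not follow CD3, had an r of 0.186 with Cd3g and -0.0386 with Cd3d.

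**Figure D4:**
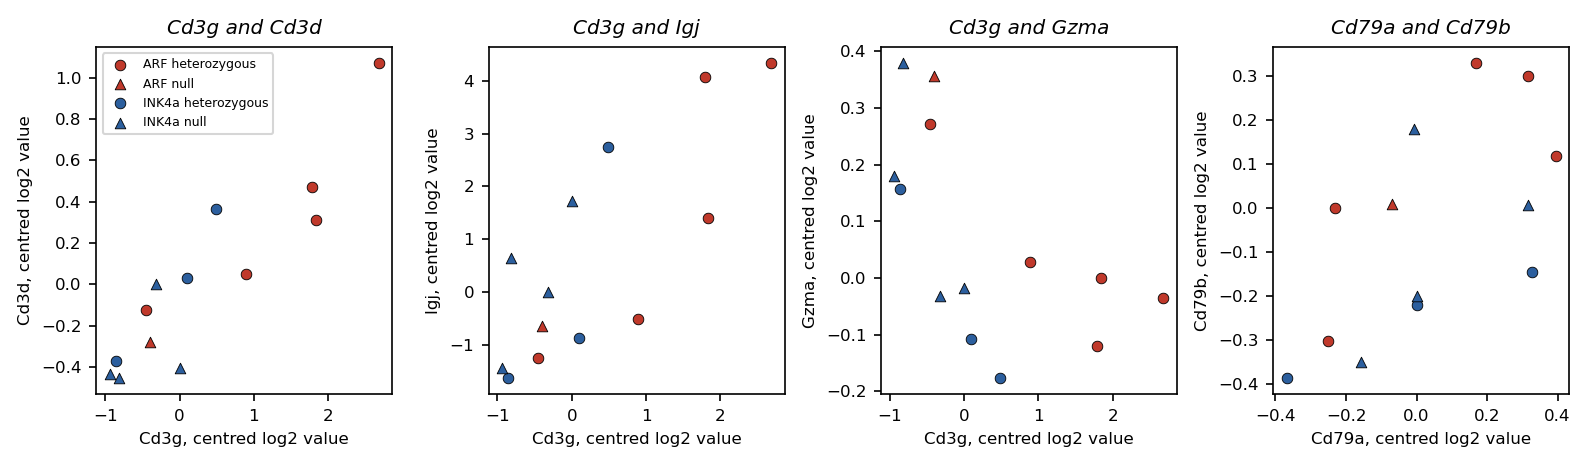
Centred log2 values of 4 pairs of genes over the 13 tumors, each point a tumor, coloured by genotype (ARF red, INK4a blue) with circles for heterozygous and triangles for null. The points run upward for Cd3d and Igj against Cd3g (r = 0.913 and 0.791) and for Cd79b against Cd79a (r = 0.619), and downward for Gzma against Cd3g (r = -0.593).

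The genes also differed in how many other probe sets shared their pattern. An r above 0.8 over the 13 tumors was reached with 217 other probe sets by Cd3g, 159 by Igj, 156 by Ltb, 143 by Cd3d and 89 by Cd8b1. It was reached with 26 by Cd79a, 21 by Cd79b, 13 by Gzma, 11 by Gzmb and 5 by Prf1. The closest were 1425763_x_at for Igj (r = 0.981) and 1422188_s_at for Cd3g (r = 0.973), which have no gene name in the tables used here. As a description, with no test, the granule and B cell receptor genes had the fewest companions. Ltb had 156 although its SD of 0.30 lay near the median over all probe sets. The number for a typical probe set was not counted.

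A measure of RNA quality was uneven between the tumors. The beta-actin control probe sets for the 3′ and 5′ ends of the transcript give a ratio that grows as RNA is degraded or copied short, and on the same centred log2 scale it was 1.49, 1.09 and 0.81 in ARF heterozygous tumors 13, 9 and 12, the tumors with the highest Cd3g, and between -0.36 and -0.035 in the other ARF-deficient tumors. In the INK4a-deficient tumors it lay between -0.54 and 0.94, with 0.94 in tumor 7.2, where Cd3g was -0.82, and -0.39 in tumor 15, where Cd3g was 0.48. The 3′ beta-actin value itself was -1.24, -0.87, -0.84 and -0.65 in tumors 13, 9, 12 and 7.2. In the other tumors the 3′ value lay between -0.14 and 0.35. Whether the ratio reflects RNA quality alone was not tested. Its r with Cd3g was 0.644 (permutation p = 0.0178, adjusted over the 10 genes 0.0891) with a rho of 0.599 (permutation p = 0.0353, adjusted 0.131). That r was 0.414 without the 2 farthest tumors, 0.832 within the ARF-deficient tumors and -0.131 within the INK4a-deficient tumors. With Igj r was 0.656 (permutation p = 0.0152, adjusted 0.0891) and rho 0.703 (permutation p = 0.00956, adjusted 0.0956). That r was 0.623 without the 2 farthest tumors, 0.760 within the ARF-deficient tumors and 0.384 within the INK4a-deficient tumors. With Cd3d r was 0.427 (permutation p = 0.145, adjusted 0.290), and with Gzma -0.132 (permutation p = 0.666, adjusted 0.740). Within the ARF-deficient tumors these were 0.659 and -0.771, and within the INK4a-deficient tumors -0.366 and 0.473. With the ratio as a covariate the ARF-deficient minus INK4a-deficient difference of Cd3g was 0.97, with a 95% interval of -0.041 to 1.99. With Cd8b1 the ratio had an r of 0.508 (permutation p = 0.0786, adjusted 0.216) and a rho of 0.588 (permutation p = 0.0392, adjusted 0.131), and r was 0.433 without the 2 farthest tumors, 0.0800 within the ARF-deficient tumors and 0.790 within the INK4a-deficient tumors. Beyond these covariate fits the part of the ratio in the differences of Cd3g, Cd8b1 and Igj was not tested. Its part in the correlations between the genes was not tested either.

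The pooled Cd3g difference was recomputed in other ways. It was positive in all 23 alternatives run and had an unadjusted p under 0.05 in 18 of them. Of the 23, 13 left out 1 tumor from the same fit, with limma p up to 0.0359. The limma p was above 0.05 with zygosity (0.0626) or the beta-actin ratio (0.0584) as a covariate. It was also above 0.05 in heterozygous tumors only (0.0651) and in tumors with whole-number labels (0.359), as was the exact Mann-Whitney p (0.0734). Leaving out 1 tumor at a time it ran between 1.07, without ARF heterozygous tumor 12, and 1.70, without ARF heterozygous tumor 8. With zygosity as a covariate it was 1.05 (95% interval -0.064 to 2.15), and in a fit of heterozygous tumors alone 1.44 (-0.11 to 3.00). In the tumors whose labels are whole numbers, which leaves out all INK4a tumors with a decimal label and keeps INK4a tumors 3 and 15, it was 0.81 (-1.12 to 2.75).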

How the data were processed

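RNA from 13 melanomas was hybridised to Affymetrix mouse arrays. The deposited table holds log values, read here as log2, processed by the authors in GeneSpringGX and centred so that each of the 22690 probe sets has a median of 0 over the 13 arrays. Base 2 was assumed for the logs, since neither it nor the background correction, summarization and normalization between arrays was named in the text consulted. The array named in the methods carries more probe sets than this table. Scanner files were not used here, so signal over background is unknown and no filter on low values could be set; the 13 arrays limit the precision. Another deposited file, a signed score for a list of probe sets chosen by genotype, holds none of the 10 genes and was not used.

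The members and gene lists were chosen with earlier results of these data known. Named were all 10 genes and, for each, the 3 probe sets with the highest r to it, of which the closest for Cd3g and Igj are printed. Another 12 marker lists (other T, cytotoxic, B and plasma cell genes, chemokines, leukocytes, macrophages, melanocytes, keratinocytes, muscle, adipocytes, fibroblasts, endothelium) were not analysed here, since no table used pairs the probe sets with genes, and the tumor label was not checked against melanocyte markers for the same reason.

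The 22626 probe sets other than 64 Affymetrix controls were fitted with limma 3.58.1 in R 4.3.3 (lmFit, eBayes without trend), with Benjamini-Hochberg adjustment over all of them and a threshold of 0.05. The pooled comparison used genotype alone, since a figure legend of the study places null and heterozygous tumors together under each deficiency. The other comparisons were contrasts of a fit with 4 groups by genotype and zygosity. Single genes were also tested with exact permutation tests, and with the methods' Mann-Whitney test in exact form. Correlations used 100000 permutations, so that 1e-05 was the smallest p they could give. Tests are two-sided. Python 3.11.15, numpy 2.4.6, pandas 2.3.3, scipy 1.17.1 and matplotlib 3.10.9 were used for the rest. Alternatives were a trend, median centring, quantile normalization, array weights, zygosity or the beta-actin ratio as covariate, subsets of tumors, the 2 compared groups alone, the probe sets with larger SD alone, and leaving out each array. Promoters and coordinates are from RefSeq, GRCm38.p6.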

Additional observations from a re-analysis of the deposited data

Results flagged for a closer look

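Within-group values that lay far from the rest by Dixon's test were looked for in 40 combinations of gene and group, where chance alone gives about 1 in 20, and 3 were found. Gzmb in ARF heterozygous tumor 14 was -0.32, with the next lowest of the 6 ARF-deficient tumors at 0. Prf1 in INK4a heterozygous tumor 15 was -0.39, with the next lowest of the 7 INK4a-deficient tumors at -0.088. Cd3d in INK4a null tumor 2.2 was 0, the median of all tumors, with the next highest of the 4 INK4a null tumors at -0.40.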

How the results depend on the processing

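Over the 3 comparisons and 10 genes, 455 differences were recomputed under alternatives; none moved across the adjusted threshold, 420 kept their sign and 35 turned. Of those 35, 26 came from leaving out 1 tumor and 9 from other settings. For ARF-deficient against INK4a-deficient tumors the sign turned for Gzmb in heterozygous tumors only (-0.048), for Cd79a with array weights (-0.0179) and with the beta-actin ratio (-0.0178), and for Igj in tumors with whole-number labels (-1.003). With the beta-actin ratio it turned for Cd79a (-0.015) and Igj (-1.22) in INK4a null against heterozygous tumors, and for Prf1 (-0.0039), Cd79a (-0.012) and Igj (-0.63) in ARF heterozygous against INK4a heterozygous tumors. Leaving out 1 tumor, the ranges that crossed 0 were, for ARF-deficient against INK4a-deficient, Gzma -0.026 to 0.083, Prf1 -0.022 to 0.091, Cd79a -0.029 to 0.10 and Ltb -0.11 to 0.083. For INK4a null against heterozygous they were Prf1 -0.092 to 0.17, Cd79a -0.13 to 0.22 and Igj -0.70 to 1.49, and for ARF heterozygous against INK4a heterozygous Gzmb -0.21 to 0.040, Prf1 -0.094 to 0.17 and Cd79a -0.085 to 0.26. Leaving out 1 tumor moved the pooled Igj difference between 0.45, without ARF heterozygous tumor 12, and 1.57, without ARF heterozygous tumor 8.

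Probe sets past the adjusted threshold between INK4a null and heterozygous tumors numbered 9, but 14 with a trend, 1 after quantile normalization, 0 with the 2 groups alone, 0 with the beta-actin ratio, and 0 to 423 leaving out 1 tumor (423 without INK4a heterozygous tumor 5.2). Between ARF heterozygous and INK4a heterozygous tumors there was 1, but 0 after quantile normalization, 0 with the 2 groups alone, 0 with the beta-actin ratio, and 0 to 104 leaving out 1 tumor (104 without INK4a heterozygous tumor 5.2). None of the 10 genes was among those past the threshold under any of these settings. The 3 correlated pairs (Cd3g with Cd3d, and Igj with each) became 7 from deviations from group means, which added Ltb with Igj and Cd3d and Gzma with Cd3g and Cd3d, 1 after quantile normalization (Cd3g with Cd3d) and 1 to 4 leaving out 1 tumor. With only the probe sets of larger SD, 11313 were tested, which held 5 of the 10 genes. The cause of these changes was not tested. No paired analysis was possible because no replicate number occurs in both groups of any comparison. The centred table holds no signal over background, so a gene near 0 in every tumor cannot be called undetected.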
